A study of Arabidopsis thaliana with 6 samples.

Results

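The 10 clock genes described here are those whose transcripts are best known to peak between dawn and midday, *CCA1*, *LHY*, *PRR9*, *PRR7*, *RVE1*, *RVE4*, *RVE6*, *RVE8*, *LNK1* and *LNK2*. They were chosen by locus, as every probe whose transcript belongs to 1 of these loci. This gave 18 probes for 10 of the 25433 loci with a probe, out of 43603 probes on the array. The question asked of the arrays was which transcripts differed in aerial tissue when the rice gene *OsbHLH068*, a basic/Helix-Loop-Helix transcription factor gene, was overexpressed in *Arabidopsis*.

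RNA came from aerial tissue of 17-day-old plants, from the transformant *35S::OsbHLH068* (9) on 3 arrays (labelled OsbHLH068OE) and from the accession Col-0 on 3 arrays. The transgene is driven by the constitutive CaMV 35S promoter in the Col-0 background, and a single transgenic line was hybridized. The Col-0 plants are the untransformed accession, and no other treatment is named for either group. The labels number the replicates of each group. The methods state that labelled cRNA was pooled before hybridization and do not name what was pooled. The p-values therefore measure the spread between these arrays. The time of day of harvest is not given in the sources used here, and all plants had 1 age, so the morning phase of these genes could not be checked in these data. The array carried 0 probes named for a rice gene, so the transgene itself was not measured.

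In *Arabidopsis*, the clock is a loop of transcription factors that repress each other in sequence through the day. *CIRCADIAN CLOCK ASSOCIATED 1* (*CCA1*) and *LATE ELONGATED HYPOCOTYL* (*LHY*) encode MYB-like factors that accumulate around dawn and repress genes of the evening. *PSEUDO-RESPONSE REGULATOR 9* and *7* (*PRR9*, *PRR7*) follow in the day and repress *CCA1* and *LHY*. The REVEILLE factors RVE4, RVE6 and RVE8 activate evening genes together with the coactivators LNK1 and LNK2, and RVE1 connects the clock to auxin and growth.

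None of the 18 probes passed the test, and the differences were small. The log2-fold change, given throughout as OsbHLH068OE minus Col-0, ran between −0.35 for *RVE4* and 0.33 for *LHY*, which are 0.784-fold and 1.25-fold. *LHY*, all probes of *CCA1* and *RVE6* and 1 probe of *LNK1* read higher on every *OsbHLH068*-overexpressing array than on any Col-0 array. Both probes of *RVE4* and 1 probe of *LNK2* read lower. Of all probes, 14.7% were higher and 12.3% lower without overlap, against 38.9% and 16.7% of the 18. *RVE1*, *RVE8* and *PRR7* overlapped between the groups in every probe. *PRR9* also overlapped.

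Values are log2 signals after background correction and quantile normalization, and levels were compared only within a probe. Each difference was tested with limma across all 43603 probes, and a probe was called at a Benjamini-Hochberg adjusted P under 0.05 over all of them. The call rule of the methods was also applied, in which a differentially expressed probe (DEP) has an unadjusted P under 0.05 and differs by more than 1 log2 unit in either direction. Under the adjusted rule 0 of the 18 probes were called, against 0.527% of all probes, and under the DEP rule 0 of 18 were called, against 1.17% of all probes. At an unadjusted limma P under 0.05, 5 of the 18 probes were higher, against 10.9% of all probes, and 2 were lower, against 8.88% of all probes. By the methods' own test, 6 member probes were higher and 3 lower at an unadjusted P under 0.05, and the shares of all probes are not given here. After adjustment that test called 0 of all 43603 probes, so its 0 calls among the members are not particular to these genes.

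All 18 probes were well above background on all 6 arrays, and 0 of them were saturated or marked as outliers. The depth of an array is its signal. The median spot signal was 284 to 322 on the *OsbHLH068*-overexpressing arrays and 311 to 356 on the Col-0 arrays, over a local background of 29 to 32, and 70.9% to 74.0% of the non-control spots were well above background. The arrays lay on 2 slides, with replicate 1 of both groups on slide 1 and the other replicates on slide 2.

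The tissue label was set against marker genes. All 34 probes of 4 genes of green tissue (*RBCS1A*, *LHCB1.3*, *CAB2*, *RCA*) were well above background on every array, with log2-fold changes of −0.051 to 0.16. None of the 5 probes of 4 root hair genes (*EXPA7*, *EXPA18*, *COBL9*, *PRP3*) was well above background on all 6 arrays. All 7 probes of 5 floral organ identity genes (*AP1*, *AP3*, *PI*, *AG*, *SEP3*) were well above background. Their log2-fold changes ran from −0.91 to 0.55, and 0 of 7 were called. Both probes of *SEP3* were lower without overlap (28.6% of the floral probes, against 12.3% of all probes). Of *AG*, 1 probe was higher without overlap (14.3%, against 14.7% of all probes). The paper reports later flowering in this line than in Col-0. Whether plants of the same age were at the same stage was not tested. The mean log2 signal over these 5 floral genes was 9.67, 9.52 and 10.03 on the *OsbHLH068*-overexpressing arrays and 10.27, 9.73 and 9.68 on the Col-0 arrays. The Col-0 array with the highest floral mean was replicate 1. In such bulk tissue, fewer cells of a type and less RNA per cell cannot be told apart.

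*CCA1* (AT2G46830) had 3 probes, and on each of them every *OsbHLH068*-overexpressing array read above every Col-0 array. The brightest, A_84_P19241, read 14.36, 14.46 and 14.53 in OsbHLH068OE replicates 1, 2 and 3, against 14.23, 14.24 and 14.25 in Col-0 replicates 1, 2 and 3. The group means were 14.45 ± 0.083 and 14.24 ± 0.012 (SD, n = 3 each), so the 3 Col-0 arrays lay closer together than the *OsbHLH068*-overexpressing ones. The log2-fold change was 0.21 (SE 0.078, 95% interval 0.019 to 0.40), that is 1.16-fold, with a limma adjusted P of 0.224.

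The second probe of *CCA1*, A_84_P847991, read 10.68, 10.68 and 10.57 in OsbHLH068OE, against 10.38, 10.48 and 10.52 in Col-0. The log2-fold difference was 0.19 (SE 0.081, 95% interval −0.012 to 0.38, limma adjusted P = 0.273). The third, A_84_P847314, read 9.14, 9.002 and 8.82 in OsbHLH068OE, against 8.73, 8.80 and 8.76 in Col-0, and the log2-fold difference was 0.23 (SE 0.10, 95% interval −0.025 to 0.48, limma adjusted P = 0.289). The 3 estimates for *CCA1* therefore lay within 0.19 to 0.23, although the replicates of the transformant were ordered differently on the brightest probe than on the dimmest. For every probe of these genes without overlap, the two-sided exact permutation test over the 6 arrays gave p = 0.1, the smallest value that 3 against 3 arrays allow.

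*LHY* (AT1G01060), the closest relative of *CCA1*, was read by 1 probe, A_84_P16823. It gave 13.74, 13.81 and 13.99 in OsbHLH068OE, against 13.47, 13.59 and 13.49 in Col-0, with means of 13.84 ± 0.13 and 13.52 ± 0.066 (SD, n = 3 each). The groups did not overlap. The log2-fold change of 0.33 (SE 0.097, 95% interval 0.090 to 0.56) was the largest positive estimate among the 18 probes, and its limma adjusted P was 0.166. The upper bound of that interval, the highest of all members, is 1.48-fold.

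*PRR9* (AT2G46790), the earliest of the PRR repressors in the day, differed from *CCA1* and *LHY* in both sign and overlap. Its probe A_84_P126821 read 7.48, 7.52 and 7.75 in OsbHLH068OE, against 7.56, 7.94 and 8.04 in Col-0. The means were 7.59 ± 0.15 and 7.85 ± 0.26 (SD, n = 3 each). Col-0 replicate 1 lay among the arrays of the transformant, and the other Col-0 arrays lay above all of them. The log2-fold change was −0.26 (SE 0.15, 95% interval −0.64 to 0.12, limma adjusted P = 0.394; exact permutation p = 0.2). It was −0.40 without Col-0 replicate 1 (limma adjusted P = 0.0903) and −0.16 without Col-0 replicate 3 (limma adjusted P = 0.691). The lower bound of the interval over all 6 arrays is 0.644-fold, the lowest of all members.

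*PRR7* (AT5G02810), which acts after *PRR9*, had probes with estimates on either side of 0. A_84_P21494 read 11.57, 11.44 and 11.58 in OsbHLH068OE, against 11.33, 11.56 and 11.76 in Col-0, and the log2-fold difference was −0.021 (SE 0.13, 95% interval −0.33 to 0.29, limma adjusted P = 0.940). A_84_P820553 read 7.27, 7.19 and 7.11 in OsbHLH068OE, against 7.06, 7.05 and 7.21 in Col-0, and the log2-fold difference was 0.082 (95% interval −0.13 to 0.30, limma adjusted P = 0.631). On both probes the groups overlapped, and both intervals included 0.

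**Figure D1:**
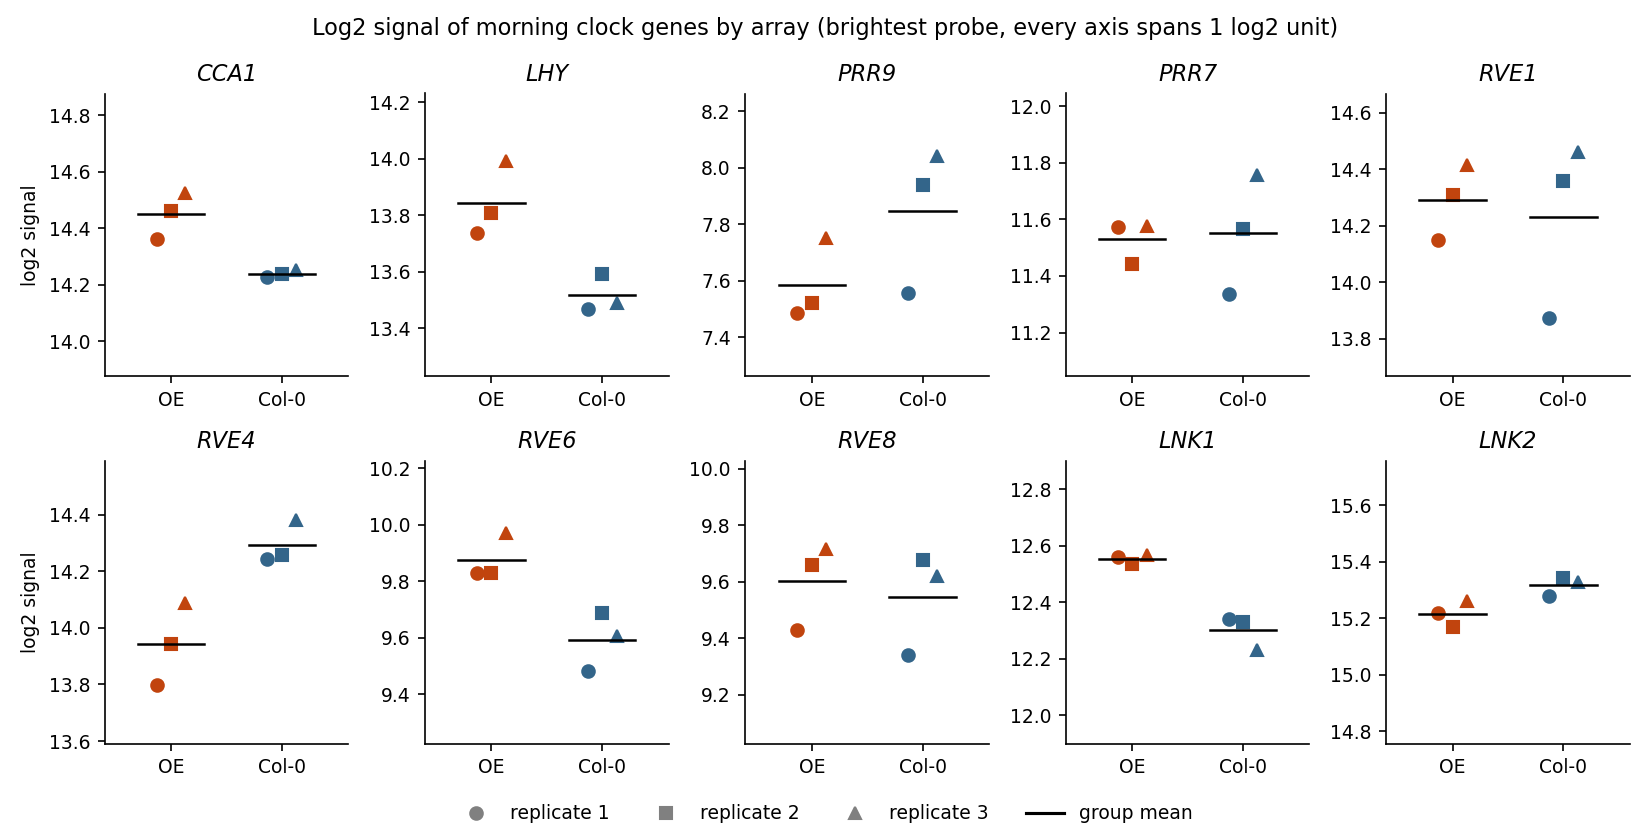
Log2 signal of the brightest probe of each of the 10 genes, by array, with OsbHLH068OE (OE) left and Col-0 right in each panel, points shaped by replicate number, a line at the group mean, and every vertical axis spanning 1 log2 unit. *LHY*, *CCA1*, *RVE6* and *LNK1* sit higher on all 3 arrays of the transformant, *RVE4* and *LNK2* sit lower, and the other panels overlap, with Col-0 replicate 1 the lowest Col-0 point in 9 of the 10 panels.

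The REVEILLE activators did not share a sign. *RVE4* (AT5G02840) was lower on every array of the transformant by both of its probes. A_84_P23386 read 13.80, 13.94 and 14.09 in OsbHLH068OE, against 14.24, 14.26 and 14.38 in Col-0, with means of 13.94 ± 0.14 and 14.29 ± 0.076 (SD, n = 3 each). Its log2-fold change of −0.35 (SE 0.10, 95% interval −0.60 to −0.10) was the lowest among the 18 probes, with a limma adjusted P of 0.162. The second probe, A_84_P767209, read 13.80, 13.96 and 14.08 in OsbHLH068OE, against 14.17, 14.23 and 14.41 in Col-0, and gave −0.32 (SE 0.11, 95% interval −0.59 to −0.054, limma adjusted P = 0.199). The probes of *RVE4* thus gave nearly the same difference.

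*RVE6* (AT5G52660), in the same activating clade as *RVE4*, was higher on every array of the transformant by both probes. A_84_P219828 read 9.83, 9.83 and 9.97 in OsbHLH068OE, against 9.48, 9.69 and 9.61 in Col-0, with means of 9.88 ± 0.080 and 9.59 ± 0.10 (SD, n = 3 each). The log2-fold change was 0.28 (SE 0.091, 95% interval 0.061 to 0.51), or 1.22-fold, with a limma adjusted P of 0.184. A_84_P824647 read 9.05, 9.13 and 9.16 in OsbHLH068OE, against 8.73, 8.84 and 8.97 in Col-0, and gave 0.27 (SE 0.092, 95% interval 0.041 to 0.49, limma adjusted P = 0.203).

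*RVE8* (AT3G09600), the best studied activator of that clade, was read by 1 probe, A_84_P14542. It gave 9.43, 9.66 and 9.71 in OsbHLH068OE, against 9.34, 9.68 and 9.62 in Col-0. Replicate 1 was the lowest array of each group, and the groups overlapped. The log2-fold change was 0.056 (SE 0.13, 95% interval −0.26 to 0.37, limma adjusted P = 0.836).

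*RVE1* (AT5G17300), the REVEILLE member tied to auxin, had the widest Col-0 spread of the 10 genes. A_84_P161503 read 14.15, 14.31 and 14.41 in OsbHLH068OE, against 13.87, 14.36 and 14.46 in Col-0, and A_84_P823227 read 14.08, 14.22 and 14.30 in OsbHLH068OE, against 13.81, 14.26 and 14.49 in Col-0. In both, Col-0 replicate 1 was below all other arrays and Col-0 replicate 3 above all others. The log2-fold changes were 0.059 (95% interval −0.37 to 0.49, limma adjusted P = 0.872) and 0.011 (95% interval −0.44 to 0.47, limma adjusted P = 0.980). Without Col-0 replicate 1 they turned to −0.12 and −0.18, with limma adjusted P of 0.503 and 0.359.

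Of the coactivators, *LNK1* (AT5G64170) had the smallest adjusted P among the members, on its brighter probe. A_84_P137629 read 12.56, 12.53 and 12.57 in OsbHLH068OE, against 12.34, 12.33 and 12.23 in Col-0, with means of 12.55 ± 0.018 and 12.30 ± 0.060 (SD, n = 3 each). The log2-fold change was 0.25 (SE 0.074, 95% interval 0.073 to 0.43), or 1.19-fold, with a limma adjusted P of 0.161. The dimmer probe did not show this separation. A_84_P835531 read 8.10, 7.94 and 8.06 in OsbHLH068OE, against 7.96, 8.09 and 7.88 in Col-0, and gave 0.059 (95% interval −0.17 to 0.29, limma adjusted P = 0.753).

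*LNK2* (AT3G54500), which acts with *LNK1*, was lower on all 3 arrays of the transformant by its brighter probe, A_84_P52840, with 15.22, 15.17 and 15.26 in OsbHLH068OE, against 15.28, 15.34 and 15.33 in Col-0. The log2-fold change was −0.10 (SE 0.073, 95% interval −0.28 to 0.078, limma adjusted P = 0.479), so the interval included 0 although the arrays did not overlap. The other probe, A_84_P820018, read 11.37, 11.10 and 11.08 in OsbHLH068OE, against 11.18, 11.24 and 11.19 in Col-0, with overlap and a log2-fold change of −0.022 (95% interval −0.27 to 0.23, limma adjusted P = 0.926).

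**Figure D2:**
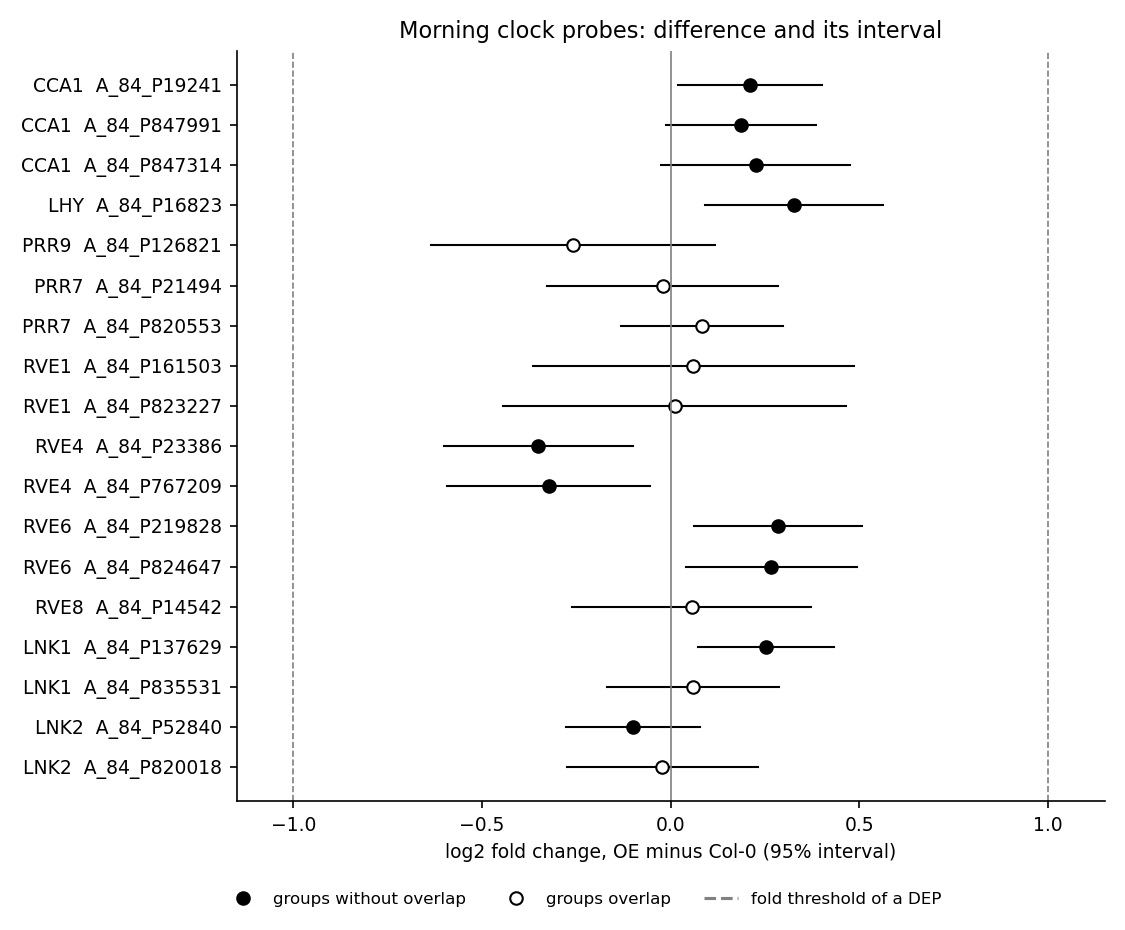
Log2-fold change (OsbHLH068OE minus Col-0, horizontal axis) of each of the 18 probes with its 95% interval from limma, filled where the arrays of the groups did not overlap and open where they did, with dashed lines at the fold threshold of a DEP. The estimates lie between −0.35 and 0.33, and all 18 intervals lie inside the dashed lines.

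Over the whole list, 12 probes were above 0 and 6 below, and the median log2-fold change was 0.059, against 0.018 over all probes. Without overlap between the groups were 10 of the 18 probes. Of these, 7 were higher in OsbHLH068OE (38.9%, against 14.7% of all probes) and 3 were lower (16.7%, against 12.3% of all probes). The 7 higher probes came from 4 genes and include 3 probes of *CCA1* and a pair of *RVE6*, and probes of 1 gene share their RNA and are not separate observations. Counted once per gene by the brightest probe, 4 of 10 genes were higher without overlap (*CCA1*, *LHY*, *RVE6*, *LNK1*) and 2 lower (*RVE4*, *LNK2*). In size the differences were near those of all probes, with a median absolute log2-fold change of 0.20 for the members and 0.17 for all probes. Of all probes, 21.4% differed by at least as much as the member that differed most. That set includes dim probes, while every member was well above background. All 18 intervals lay between −1 and 1, so at this precision a difference as large as the fold threshold of a DEP lay outside the interval of every member probe.

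The spread between arrays was itself uneven among the members. The median SD over the 18 probes was 0.10 among the *OsbHLH068*-overexpressing arrays and 0.095 among the Col-0 arrays, against 0.13 and 0.16 over all probes. Only 30298 of the 43603 probes were well above background on every array, as all members were, so the 2 sets differ in brightness. On the brightest probe of *CCA1* the Col-0 arrays spanned 0.024 log2 units, a Col-0 SD at percentile 0.927 of the 30298 probes well above background on every array. On the probes of *RVE1* they spanned 0.59 and 0.69, with SDs at percentiles 87.5 and 90.0. *PRR9* and *PRR7* (A_84_P21494) also spread widely in Col-0, over 0.49 and 0.42 log2 units, against 0.27 and 0.13 in OsbHLH068OE.

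Replicate 1 was often the lowest array of its group, more often in Col-0. OsbHLH068OE replicate 1 was the lowest array of its group for 9 of the 18 probes (against 34.9% of the probes well above background), and Col-0 replicate 1 was the lowest of its group for 15 of 18 (83.3%, against 35.9% of those probes). By brightest probe these are 6 and 9 of the 10 genes, and the exception in Col-0 was *LNK1*. This pattern was noticed in the values and was not tested. Both replicate 1 arrays lay on slide 1, and Col-0 replicate 1 was also the Col-0 array with the highest floral mean given above. The part of the slide or of the floral genes in this pattern was not tested. Without Col-0 replicate 1 the median log2-fold change over the 18 probes was 0.0078, and without Col-0 replicate 3 it was 0.15.

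Within slides, 14 of the 18 probes differed in the same direction on both. For the 10 probes without overlap this follows from the absence of overlap, and for the 8 with overlap it held for 4. On slide 1, with 1 array of each group, *LHY* differed by 0.27, *CCA1* by 0.13 to 0.41, *LNK1* (A_84_P137629) by 0.22 and *RVE4* by −0.44 and −0.37. On slide 2 the same differences were 0.36 for *LHY*, 0.13 to 0.25 for *CCA1*, 0.27 for *LNK1* and −0.30 for both probes of *RVE4*. The slides disagreed in sign for *RVE1*, with 0.28 and 0.27 on slide 1 and −0.049 and −0.12 on slide 2. They also disagreed for 1 probe of *PRR7*, with 0.24 and −0.15, and for the dimmer probe of *LNK2*, with 0.19 and −0.13. With the slide as a block in limma, 0 of the 18 probes were called, against 1.19% of all probes called higher and 1.14% called lower, and the smallest adjusted P was 0.0863, for *RVE4*.

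**Figure D3:**
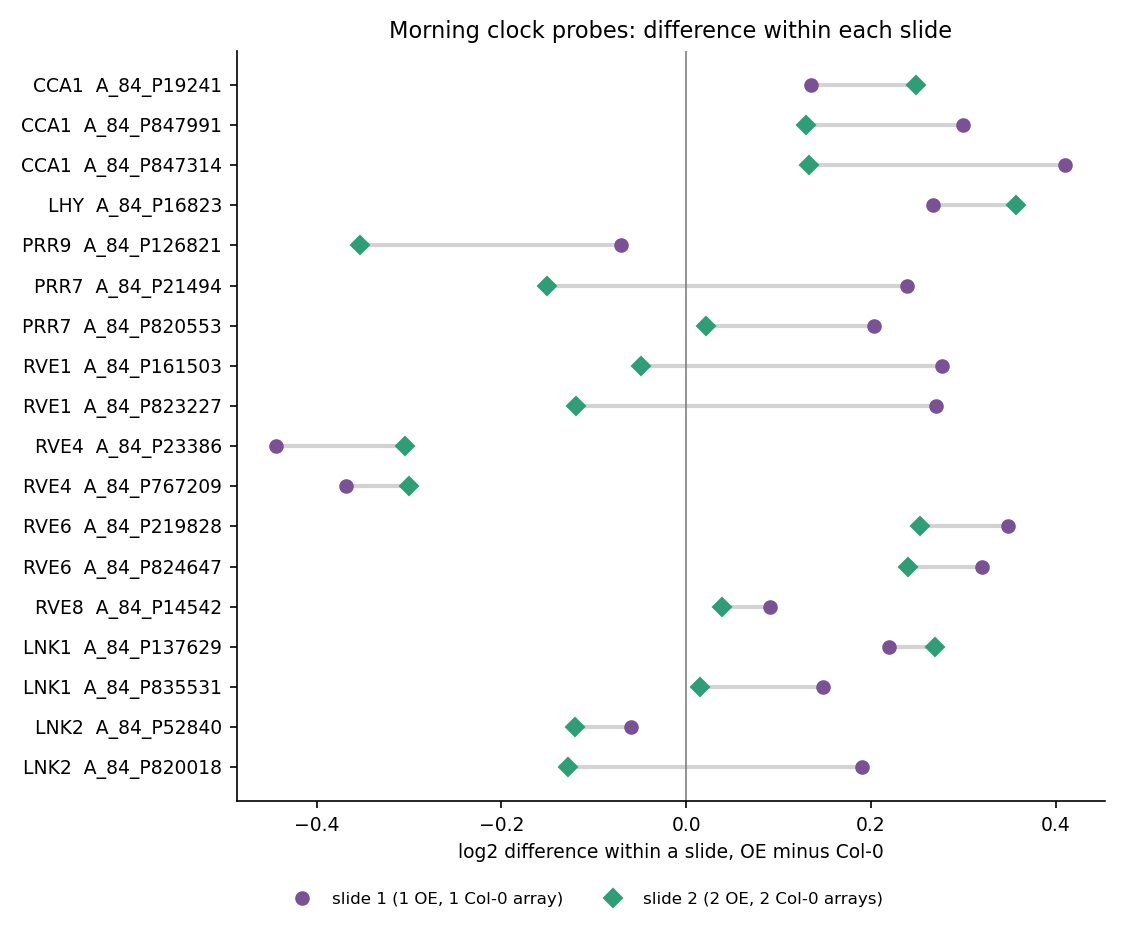
Log2 difference between OsbHLH068OE and Col-0 within slide 1 (circles, 1 array of each group) and within slide 2 (diamonds, 2 arrays of each group) for each of the 18 probes, joined by a grey line. For 14 probes both points lie on the same side of 0, while the lines of *RVE1* (both probes), *PRR7* (A_84_P21494) and *LNK2* (A_84_P820018) cross it.

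Some of the 10 genes lie near each other in the genome. In the TAIR10.1 gene order, *CCA1* and *PRR9* are on chromosome 2 with 3 protein-coding genes between them, and *PRR7* and *RVE4* are on chromosome 5 with 2 between them. Neighbours did not share a sign in the first pair, where *CCA1* was at 0.21 and *PRR9* at −0.26 by their brightest probes. In the second, *PRR7* was at −0.021 and *RVE4* at −0.35. The probe sequences were not used here, so signal shared between similar members of the MYB-like family was not examined.

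The remaining genes of the REVEILLE and LNK families (*RVE2*, *RVE3*, *RVE5*, *RVE7*, *LNK3*, *LNK4*) had 9 probes, of which 0 were called by adjusted P (0.527% of all probes were) and 1 was a DEP (1.17% of all probes were). Without overlap between the groups, 5 of the 9 were higher (55.6%, against 14.7% of all probes) and 2 were lower (22.2%, against 12.3%). A higher share without overlap was thus not particular to the morning genes. The DEP was a probe of *RVE3*, a relative of *RVE4*, *RVE6* and *RVE8*. It read 10.27, 10.59 and 10.68 in OsbHLH068OE, against 9.24, 9.51 and 9.64 in Col-0, for a log2-fold difference of 1.05 (SE 0.15, 95% interval 0.67 to 1.42, limma adjusted P = 0.0590), and the second probe of *RVE3* gave 0.96 (limma adjusted P = 0.0806). With the slide as a block in limma, both probes of *RVE3* passed, each with an adjusted P of 0.0392. Without Col-0 replicate 1 or without OsbHLH068OE replicate 3, the first probe differed by 0.94 or 0.97 and was no longer a DEP. Its limma adjusted P was then 0.0439 or 0.14. The first probe passed the adjusted threshold under 7 of 19 alternatives, counting the slide block and the fit without Col-0 replicate 1. The interval of the first *RVE3* probe lay above the intervals of all 10 morning genes, as the plot by clock list shows, although no test of that difference between genes was made. *RVE2*, a relative of *RVE1* that was picked out after its values were seen, read 11.34, 11.88 and 11.56 in OsbHLH068OE, against 12.22, 12.65 and 12.73 in Col-0, and the log2-fold difference was −0.94 (SE 0.19, 95% interval −1.42 to −0.47, limma adjusted P = 0.101, or 0.0432 with the slide as a block).

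Genes listed for the evening part of the oscillator lay mostly below 0. Whether the morning factors act on them in these plants was not tested. Of 15 probes for 12 genes, 13 were below 0 and 2 above, and their median log2-fold change was −0.29. Without overlap between the groups, 8 probes were lower (53.3%, against 12.3% of all probes) and 1 was higher (6.67%, against 14.7%). By adjusted P, 1 of the 15 was called, against 0.527% of all probes. This was the probe of *ELF3*, a subunit of the evening complex, which fell to 10.25 ± 0.013 in OsbHLH068OE, against 10.84 ± 0.078 in Col-0 (SD, n = 3 each), for a log2-fold difference of −0.59 (SE 0.077, 95% interval −0.78 to −0.40, limma adjusted P = 0.0488). This call was lost without any 1 array other than Col-0 replicate 1, when the adjusted P was 0.121 to 0.230. In those fits only 1 to 19 of all 43603 probes were called, against 230 with all arrays, so the loss says little about *ELF3*. Its log2-fold difference in those fits was −0.60 to −0.56.

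The partners of ELF3 in that complex did not pass in the main fit, which used all 6 arrays and no block. *LUX* gave −0.66, −0.51 and −0.53 over 3 probes, with limma adjusted P of 0.0559, 0.130 and 0.140, and *ELF4* gave −0.58 (limma adjusted P = 0.141). The first *LUX* probe (A_84_P851226) passed under 8 of 19 alternatives, among them the slide as a block (limma adjusted P = 0.0433), and *ELF4* passed without Col-0 replicate 1 (limma adjusted P = 0.0393). *TOC1*, the evening repressor that CCA1 and LHY hold down in the morning, read 9.30, 9.18 and 9.04 in OsbHLH068OE, against 9.41, 9.60 and 9.38 in Col-0, for a log2-fold difference of −0.29 (95% interval −0.55 to −0.024, limma adjusted P = 0.226). *PRR5*, the repressor that follows *PRR7*, gave −0.27 with overlap (95% interval −0.72 to 0.19, limma adjusted P = 0.459). *GIGANTEA* (*GI*), a flowering and clock gene, stood on the other side of 0, with 0.46 and 0.33 (limma adjusted P of 0.155 and 0.239). The arrays of the transformant were therefore above those of Col-0 for *LHY*, *CCA1* and 1 probe of *GI*, and below them for *TOC1*, *ELF4* and *LUX*, with *ELF3* alone past the adjusted threshold in the fit without a block. With the slide as a block, *ELF3* (adjusted P = 0.0433) and *BOA*, a relative of *LUX* at −0.67 (adjusted P = 0.0438, or 0.0737 without the block), passed as well as *LUX*, *RVE2* and both probes of *RVE3* in limma.

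In the other clock lists the medians were near 0, while single genes differed in both directions. Regulators and partners of the clock proteins (12 genes, 16 probes) had a median log2-fold change of 0.0078, with 8 probes above 0 and 8 below. Output genes (8 genes, 16 probes) had a median of −0.059, with 6 probes above 0 and 10 below, and 25.0% of them were lower without overlap, against 12.3% of all probes. In both lists 0 probes were called by adjusted P and 0 were DEPs. Picked out after their values were seen, *CDF1*, a repressor of flowering, gave −0.66 and −0.89, *COR28* −0.57 and −0.25, *LWD1* −0.42 and −0.55, and *TZP* 0.53, all without overlap, with limma adjusted P of 0.0773 to 0.227. Over all 4 of the other clock lists, 1 of 56 probes was called, against 0.527% of all probes. At an unadjusted limma P under 0.05, 6 of the 56 were higher (10.9% of all probes were) and 15 were lower (26.8%, against 8.88%).

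**Figure D4:**
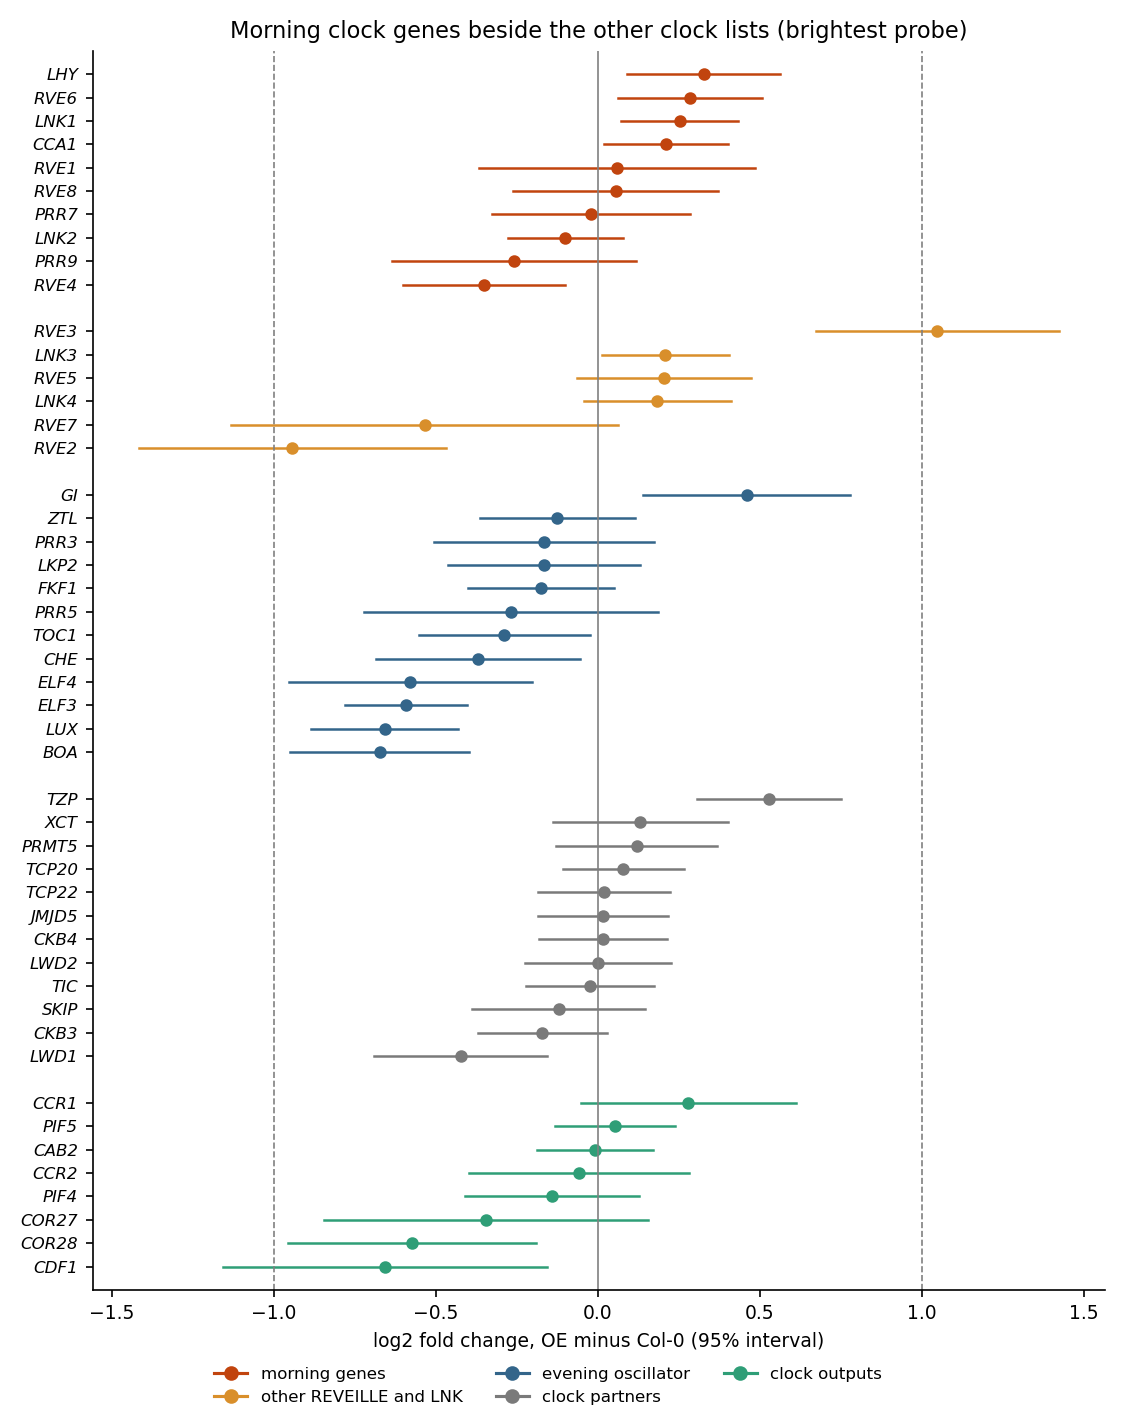
Log2-fold change (OsbHLH068OE minus Col-0, horizontal axis) with its 95% interval for the brightest probe of each gene, with the 10 morning genes at the top and the 4 other clock lists under them, and dashed lines at the fold threshold of a DEP. The morning genes lie between −0.35 and 0.33, *RVE3* lies at 1.05 and *RVE2* at −0.94, and 11 of the 12 evening oscillator genes lie below 0.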

How the data were processed

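RNA of aerial tissue was hybridized to 6 single-colour Agilent arrays, with 3 of OsbHLH068OE and 3 of Col-0, grouped by the sample labels. The deposited intensity values are median spot and background signals read by Agilent Feature Extraction 10.7.1.1, and they served for signal checks and alternatives. The log2 values reported here were made by the authors with limma (normexp background correction, then quantile normalization). The same steps repeated from the intensities gave values within 5e-09 of these. Quantile normalization gives all arrays the same distribution, so a shift of all transcripts cannot be seen.

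The 1417 control spots were left out and 43603 probes were fitted with lmFit and eBayes in limma 3.58.1 (R 4.3.3), with group as the single term and no filter on dim probes. Prior degrees of freedom were 2.03. Intervals are 95% intervals of the moderated fit. Transcript accessions gave a locus for 34358 probes through a RefSeq table of TAIR10.1, used for names and gene order only. The fit was tested on simulated data.

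Every probe of the 10 genes was named. Of the other clock lists, *TOC1*, *PRR5*, *GI*, *LUX*, *ELF4* and each gene with a called probe or a DEP were named. Members and lists were chosen with earlier results of these data known. Alternatives covered background correction, scaling, filtering, the prior, the methods' t-test, blocks for replicate number and slide, and leaving out each array.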

Additional observations from a re-analysis of the deposited data

How the results depend on the processing

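Under all 19 alternatives, 0 of the 18 member probes were called by adjusted P and 0 were DEPs. The count over all probes called by adjusted P ran from 0 (the methods' t-test) to 2684 (without Col-0 replicate 1). It was only 0 to 19 with the t-test, the replicate block, or any 1 array other than Col-0 replicate 1 left out. In those settings the 0 member calls by adjusted P therefore say little about these genes. The lowest adjusted P of any member was 0.0566, for *LNK1* (A_84_P137629). The median log2-fold change of the members was 0.0078 to 0.15 when 1 array was left out, and scaling to the 75th percentile moved the median of all probes to 0.059 or 0.065, against 0.018. Signs turned only for estimates near 0. *PRR7* (A_84_P21494) gave 0.041 with the processed signal, and *RVE1* (A_84_P823227) gave −0.025 with cyclic loess. Leaving out 1 array gave −0.13 to 0.081 for *PRR7* (A_84_P21494), −0.12 to 0.17 and −0.18 to 0.16 for *RVE1* (A_84_P161503 and A_84_P823227), −0.047 to 0.14 for *RVE8* and −0.12 to 0.030 for *LNK2* (A_84_P820018).

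The count of called probes in the other clock lists, 1 in the main analysis, was 8 with a normexp offset of 50, 6 with an offset of 16, 8 without background correction, 8 with dim probes left out, 8 with an intensity trend and robust prior, 6 with the slide as a block, 2 with cyclic loess, and 0 with the processed signal or normexp scaled to the 75th percentile, the methods' t-test or the replicate block. From the offset of 50 to cyclic loess, in that order, 3.59%, 1.84%, 3.5%, 4.31%, 3.18%, 2.33% and 0.557% of all probes were called. With both scalings, the t-test and the replicate block, these shares were 0.45%, 0.39%, 0% and 0.00229%, against 0.527% in the main analysis. The count in the other clock lists was 0 to 8 when 1 array was left out. It was 8 without Col-0 replicate 1, where 6.16% of all probes were called. A higher count thus came with a higher share of all probes. The call of *ELF3* was also lost with both scalings to the 75th percentile, the methods' t-test and the replicate block. With the t-test and the replicate block, 0% and 0.00229% of all probes were called, so the loss there says little about *ELF3*. The cause of these losses was not tested. The deviations of same-numbered arrays from their group means correlated at 0.261, 0.0971 and 0.013 for replicates 1, 2 and 3. The highest value was that of replicate 1, whose arrays share slide 1. The replicate block called 0 member probes and 1 of all probes, against 230 without it. With 3 arrays a group, the number of arrays limits the precision.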
